A study of Mus musculus with 2 samples.

Results

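The genes described here are the miR-7 family genes Mir7-1, Mir7-2 and Mir7b, together with Mir671. They were taken by gene name from the GENCODE M21 annotation, and all 4 were found among the 2202 miRNA genes that the files count. MicroRNA sequencing of the left cerebral cortex was done on male B6CASTF1/J mice aged 25 days, the F1 hybrid of C57BL/6J and CAST/EiJ, with no treatment named in the labels. The labels form 1 group of 2 biological replicates from separately numbered mice, each with 1 library, so the data allow a description of levels and a comparison of replicate 2 with replicate 1, in which mouse and library cannot be told apart. The tissue is a mix of cells, so in these levels more cells of a type and more RNA per cell cannot be told apart.

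A miRNA is cut from a hairpin precursor as a 5p and a 3p strand of roughly equal size, and base pairing of its seed (mature bases 2 to 8) selects the RNAs it represses. In the brain, miR-7 is known for an RNA circuit: the circular RNA Cdr1as carries many miR-7 sites, the long non-coding RNA Cyrano carries an extensively paired site that triggers miR-7 decay, and miR-671 pairs with Cdr1as and directs its cleavage. MiR-7 is also known from neurosecretory and endocrine cells. The files hold miRNA genes and no counts for Cdr1as or Cyrano, so the levels of those RNAs were not analysed here.

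The mature sequences bear on how well each of the 3 family genes can be counted. They are from RefSeq (GRCm38.p6), which held all 4 genes, and are written 5′ to 3′ with the seed in capitals.
miR-7a-5p (from Mir7-1 and from Mir7-2): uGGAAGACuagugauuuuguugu
miR-7b-5p (from Mir7b): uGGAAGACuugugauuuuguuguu
miR-7a-1-3p (from Mir7-1): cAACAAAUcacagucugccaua
miR-7a-2-3p (from Mir7-2): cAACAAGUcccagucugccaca
miR-7b-3p (from Mir7b): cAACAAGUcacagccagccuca
miR-671-5p (from Mir671): aGGAAGCCcuggaggggcuggag
miR-671-3p (from Mir671): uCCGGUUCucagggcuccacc
The 5p strands of Mir7-1 and Mir7-2 are the same sequence. MiR-7b-5p differs from it at 1 of 23 compared bases, A10U (counted from base 1 at the 5′ end, the miR-7a base first), which lies outside the seed. All 3 genes thus share the 5p seed, and in the RefSeq table no other mouse miRNA gene has it. The 3p strands differ from each other at 3 to 5 of 22 bases. Those of Mir7-2 and Mir7b share a seed, and that of Mir7-1 differs from it by A7G. The seed of miR-671-5p differs from the 5p seed of miR-7 at 1 base, A7C, but over 23 bases the strands are the same at only 7 positions. Neither seed of Mir671 is found in another mouse gene of the table.

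The hairpins of Mir7-1 and Mir7-2 share 24 bases in a row, which cover the whole 5p strand and 1 base more. That stretch is in capitals here.
Mir7-1: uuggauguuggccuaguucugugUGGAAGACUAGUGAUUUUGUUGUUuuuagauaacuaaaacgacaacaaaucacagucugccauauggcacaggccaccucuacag
Mir7-2: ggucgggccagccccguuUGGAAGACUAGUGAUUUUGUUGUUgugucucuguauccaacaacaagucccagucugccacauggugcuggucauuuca
A read that lies wholly inside those 24 bases fits both loci equally. The files keep multimapping reads (48.6% of the mapped reads of replicate 1, 52.8% for replicate 2) as an entry apart from the genes. Exact miR-7a-5p reads would therefore fall outside the counts of Mir7-1 and Mir7-2, which are read here as minimum values for these loci. Alignments of single reads were not inspected. By contrast the longest stretch that Mir7b shares with either is 14 bases. None of its 92 windows of 20 bases, and none of the 79 windows of Mir671, occurred in a transcript of another annotated gene on either strand, whereas 5 windows of Mir7-1 and 5 of Mir7-2 did, each time in the other one of these genes. Of 1018 counted genes with a mature sequence in the table, 92 (9.04%) have a mature sequence identical to that of another gene. The counts of such genes can be minimum values in the same way. The reference is that of C57BL/6J. Whether a base that differs on the CAST/EiJ allele changed any count was not tested.

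**Figure D1:**
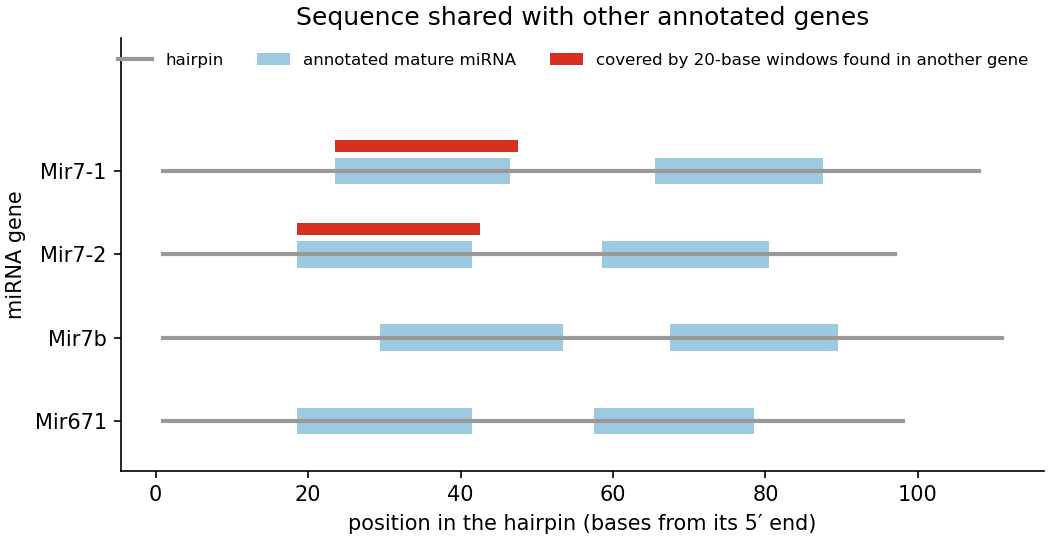
Maps of the 4 hairpins, with position in bases from the 5′ end on the x axis; grey lines are hairpins, blue boxes annotated mature strands, and red bars the stretch covered by 20-base windows that also occur in another annotated gene. Red bars lie over the 5p strands of Mir7-1 and Mir7-2, and Mir7b and Mir671 have none.

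The genes lie apart in the genome (mm10), and no other miRNA gene is annotated within 50 kb of any of them. Mir7-1 (ENSMUSG00000065434.1; chr13:58392779-58392886, minus strand) lies in an intron of Hnrnpk, which encodes an RNA-binding protein: 12 transcripts of that gene on the same strand span the hairpin, and no exon overlaps it. Mir7-2 (ENSMUSG00000065609.1; chr7:78888277-78888373, plus strand) is intergenic, 7481 bases from Aen. Mir7b (ENSMUSG00000065491.1; chr17:56242988-56243098, plus strand) is also intergenic, 183 bases from the lincRNA AC026385.1 on the same strand. Mir671 (ENSMUSG00000076387.1; chr5:24592114-24592211, plus strand) differs from the others in its location, since it lies inside coding sequence of Chpf2, a chondroitin-polymerizing factor gene, on the same strand, and opposite an exon of a Smarcd3 retained-intron transcript. The files list miRNA genes only, so own-strand reads of a Chpf2 mRNA fragment that fall in the hairpin cannot be told apart from Mir671 products.

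Mir7b supplied most of the family reads that could be assigned. Levels are given as counts per 1000000 own-strand counts (CPM), over library totals of 2388379 counts in replicate 1 and 4447390 in replicate 2. Mir7b had 5623 counts in replicate 1 and 10144 in replicate 2, which is 2354 CPM (95% exact Poisson interval 2293 to 2417) and 2281 CPM (2237 to 2326). The libraries thus gave nearly the same level, with a mean of 2318 ± 51.9 CPM (SD, n = 2) and rank 67 of 2202 genes by mean CPM. Among the family genes, it is the one with no mature sequence or 20-base window found in another annotated gene.

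The counts of the miR-7a loci were far lower. Mir7-2 had 190 counts in replicate 1 (79.6 CPM, interval 68.6 to 91.7) and 453 in replicate 2 (102 CPM, 92.7 to 112), so it was higher in replicate 2, and its mean was 90.7 ± 15.8 CPM. Mir7-1 had 132 counts (55.3 CPM, 46.2 to 65.5) and 238 counts (53.5 CPM, 46.9 to 60.8), with a mean of 54.4 ± 1.24 CPM. The ranks by mean CPM were 211 for Mir7-2 and 238 for Mir7-1. Intervals cover counting error only: no molecular identifiers are named in the labels, and copies of a molecule made by PCR are counted as separate reads.

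Mir671, whose product is known to act on Cdr1as, had 3556 counts in replicate 1 (1489 CPM, 1440 to 1539) and 8356 in replicate 2 (1879 CPM, 1839 to 1920). Its mean was 1684 ± 276 CPM, at rank 83. Replicate 2 was the higher library, and the counting intervals did not overlap. On the opposite strand, all 4 genes had 0 counts in both libraries, which at 3 counts allows up to 1.26 CPM (replicate 1) or 0.675 CPM (replicate 2).

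The order of levels was Mir7b, Mir671, Mir7-2 and Mir7-1 in both libraries, and no neighbours in that order overlapped between libraries. The order was the same per annotated length, at means of 2088, 1718, 93.5 and 50.4 CPM per 100 bases. Neighbouring levels were not tested against each other. Because exact miR-7a-5p reads fit both loci equally, the low places of Mir7-2 and Mir7-1 are places of the assigned reads alone. The total amount of miR-7a cannot be read from these counts.

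**Figure D2:**
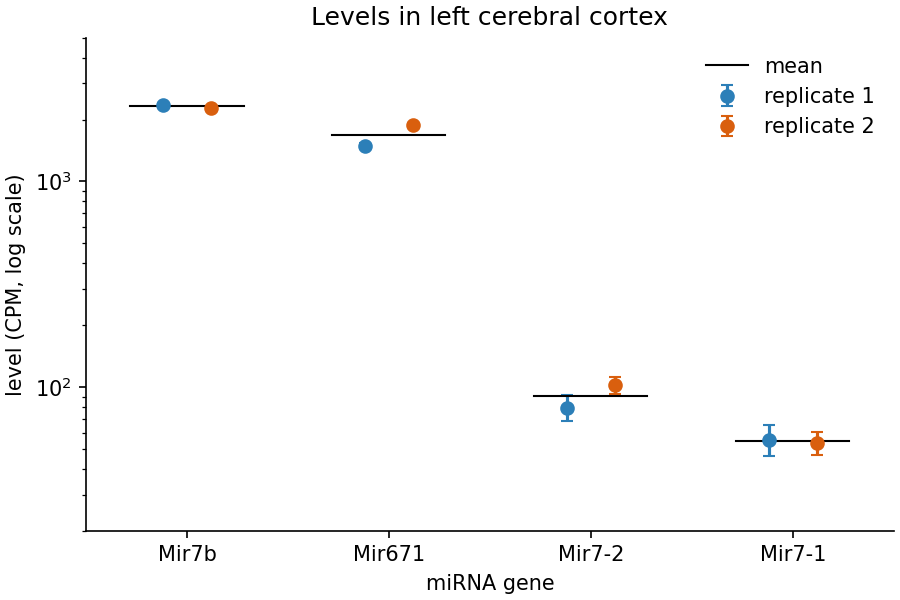
Levels in CPM on a log axis for the 4 genes; points are the libraries (blue, replicate 1; orange, replicate 2), bars exact 95% Poisson intervals of the counts, and black lines the means. Mir7b and Mir671 lie at 1489 to 2354 CPM and Mir7-2 and Mir7-1 at 53.5 to 102 CPM.

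Within the assigned counts of the family, Mir7b made up 94.6% in replicate 1 (94.0 to 95.1%, the exact Clopper-Pearson interval at 95%) and 93.6% in the other library (93.1 to 94.1%), or 94.1% ± 0.680 on average. Mir7-2 held 3.20% (2.76 to 3.68%) and 4.18% (3.81 to 4.57%), and Mir7-1 held 2.22% (1.86 to 2.63%) and 2.20% (1.93 to 2.49%). The number of Mir7b counts per Mir7-1 count was thus 42.6 in both libraries. Between the miR-7a loci, Mir7-2 had 1.44 counts for each Mir7-1 count in replicate 1 and 1.90 in replicate 2. Its share of the reads of these loci was 59.0% (53.4 to 64.4%) and 65.6% (61.9 to 69.1%), and these intervals overlap. The 3 genes summed to 2489 and 2436 CPM.

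Between the libraries, Mir671 and Mir7-2 were higher in replicate 2, and Mir7b and Mir7-1 differed little. Log2 ratios of replicate 2 over replicate 1 were 0.34 for Mir671 (counting SE 0.029, 1.26-fold) and 0.36 for Mir7-2 (SE 0.12, 1.28-fold). A two-sided exact binomial test conditional on the totals, with Benjamini-Hochberg adjustment over the 392 genes that reached 10 counts in both libraries, gave an adjusted p of 2.58e-31 for Mir671 and 0.0082 for Mir7-2. Neither Mir7b (log2 ratio −0.05, SE 0.024, adjusted p = 0.093 in the exact test) nor Mir7-1 (−0.05, SE 0.16, adjusted p = 0.84 in the exact test) passed at 0.05. Of all tested genes 56.9% passed (34.2% of the tested genes were higher and 22.7% lower in replicate 2), so 2 of 4 genes is close to the share of all genes. The median log2 ratio was 0.14 over the 4 genes and 0.06 over all tested genes. Ratios at least as small in size as that of Mir7b were found for 6.89% of tested genes, and for Mir671 this share was 48.5%. The test compares the reads of these libraries and covers counting error only. In edgeR's exact test, which adds a dispersion estimated from this pair of libraries (biological coefficient of variation 0.311), 3 genes (0.765%) passed. None of the miR-7 family genes or Mir671 was among them, and each had an adjusted p of 1 in edgeR's test. That dispersion comes from the differences between the same libraries that are compared, so few genes can pass. The edgeR test therefore cannot decide whether a gene differs between the mice.

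The library total also moved these calls. Against all mapped reads, Mir7-2 no longer passed (log2 ratio 0.23, adjusted p = 0.10 in the exact binomial test), and Mir7b passed as lower in replicate 2 (−0.17, adjusted p = 2.84e-12). That total shifted the median of all tested genes by −0.13. Mir671 passed as higher under each total tried. The count ratio of Mir7b to Mir671, which needs no library total, was 1.58 in replicate 1 and 1.21 in replicate 2.

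**Figure D3:**
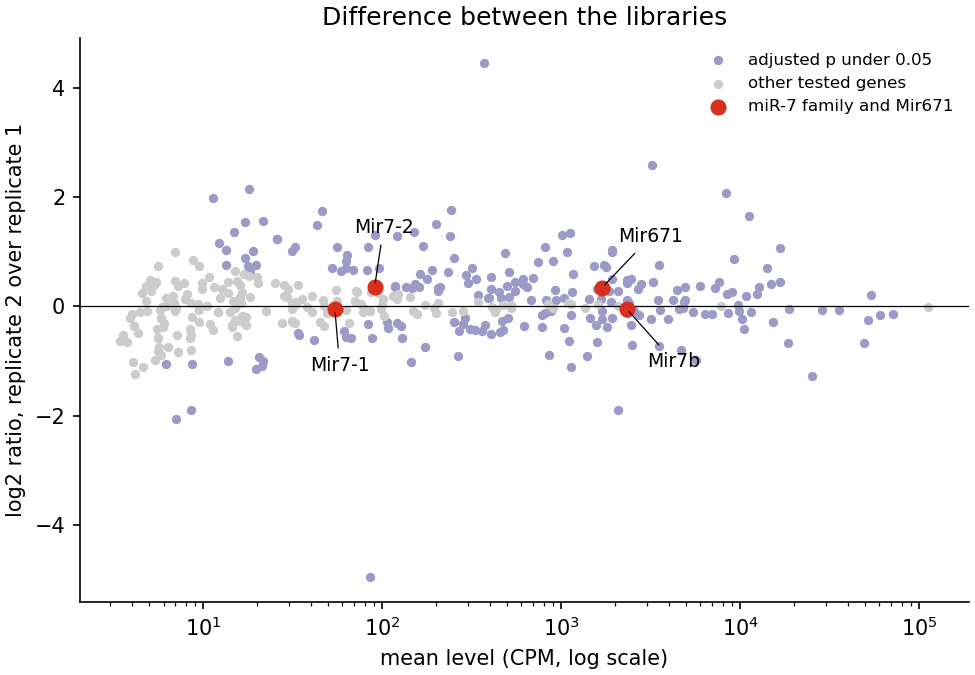
Log2 ratio of replicate 2 over replicate 1 on the y axis against mean CPM on a log x axis for the 392 tested genes; violet points passed the exact binomial test, grey points did not, and red points mark the miR-7 family genes and Mir671. The red points lie between −0.05 and 0.36, inside the bulk of the other genes.

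The genes closest in level to each of the 4 were found by distance in log2(CPM + 1) over the 2 libraries, among tested genes. Closest to Mir671 were Mir431 (1493 and 1861 CPM in replicates 1 and 2), Mir154 (1499 and 1919 CPM) and Mir484 (1413 and 1768 CPM). Mir7b lay closest to Mir676 (2447 and 2237 CPM), followed by Mir668 (2333 and 2446 CPM) and Mir485 (2243 and 2426 CPM). Distances were 0.015 for Mir431 and 0.062 for Mir676. Mir7-2 lay near Mir29b-2 (79.1 and 94.9 CPM), Mir375 (86.7 and 103 CPM) and Mir539 (73.7 and 119 CPM). Mir7-1 lay near Mir122 (54.0 and 57.6 CPM), Mir7047 and Mir542. With 2 libraries, this likeness says no more than that the levels were near each other.

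Other miRNAs whose decay is known to be triggered by a target RNA were read beside miR-7. All 9 genes listed (Mir29b-1, Mir29b-2, Mir30b, Mir30c-1, Mir30c-2, Mir221, Mir222, Mir322 and Mir503) were tested, and 1 was higher and 3 lower in replicate 2, against 34.2% higher and 22.7% lower over all tested genes. The median log2 ratio of the list was −0.11, and that of all tested genes 0.06. Mir221 and Mir222, a clustered pair on the X chromosome, were the most abundant at 4683 ± 1790 and 2072 ± 1694 CPM, and both passed the test as lower in replicate 2 (log2 ratios −0.80, counting SE 0.017, and −1.90, SE 0.028). Their replicate spread was much wider than that of Mir7b, although Mir222 was close to it in mean level. Of 9 genes known from pituitary and endocrine cells, 7 were tested, with 1 higher and 1 lower and a median of −0.07, where 56.9% of all tested genes passed in either direction. Over all 9 genes the summed level was 232 CPM (replicate 1) and 278 CPM (replicate 2). Mir375, known from pancreatic islets and pituitary, led it at 94.9 ± 11.7 CPM, and Mir429 followed at 62.6 ± 2.05 CPM. Mir96 of this list had 0 counts in replicate 1 and 1 in replicate 2. Neuron-enriched genes, as a check of the labelled tissue, summed to 106816 and 91352 CPM over 12 genes in the files, led by Mir132, Mir433 and Mir128-1. The neuronal Mir124a-1, Mir124a-2 and Mir124a-3, known to share a mature sequence, had only 0 to 9 counts each. Of 9 neuron-enriched genes tested, 6 were higher and 3 lower in replicate 2, and Mir132 alone went from 60392 to 37793 CPM. Marker lists of other cells are given beside the same shares of all tested genes (34.2% higher and 22.7% lower, median log2 ratio 0.06). The lists are short and a sum can follow 1 abundant gene, so no change of a cell type is read from them. Astrocyte-enriched genes summed to 22268 and 33372 CPM in replicates 1 and 2 (3 of 4 higher, none lower). Endothelial and mural genes summed to 16755 and 28010 CPM (1 higher and 2 lower of 3). Choroid plexus genes summed to 510 and 727 CPM, and the 1 gene of that list that was tested was higher. Oligodendrocyte genes summed to 2726 and 3556 CPM (1 higher and 0 lower of 3, median log2 ratio −0.03). Microglia and leukocyte genes summed to 2306 and 2493 CPM (2 higher and 1 lower of 5, median 0.11). Red-cell genes summed to 134 and 144 CPM (1 higher and 0 lower of 3, median −0.08). The part of any cell type in the levels of the miR-7 genes and Mir671 was not tested.

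The known target RNAs were read for seed matches in the GENCODE M21 transcripts, as a description of sequence. The letters searched were GTCTTCC for the miR-7 5p seed and GGCTTCC for miR-671-5p, on the RNA strand and on the opposite strand. RefSeq lists Cdr1as as a synonym of the X-linked gene C230004F18Rik. Its transcript C230004F18Rik-206 (3354 bases, 7 exons) has an exon 6 at chrX:61183248-61186174, plus strand, that spans the gene Cdr1 on the opposite strand. Within that exon of 2927 bases GTCTTCC occurred 123 times, 34 of them followed by A, and these letters made up 29.4% of its bases. The median spacing from 1 match to the next was 18 bases. Other transcript windows of 3354 bases held at most 4 matches, and 26.1% of 12982 such windows, taken from the longest transcript of each other gene, held any. GGCTTCC occurred once in the same exon and overlapped no miR-7 match. On the opposite strand of this transcript neither motif was found. A longer transcript of the same gene, C230004F18Rik-210 (19658 bases), held 125 GTCTTCC and 3 GGCTTCC matches. That is 6.36 GTCTTCC matches per kb, against 36.7 per kb in C230004F18Rik-206.

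The single miR-671-5p match of C230004F18Rik-206 lay in the stretch of that transcript that pairs best with the whole miRNA, at chrX:61186029-61186051. It is shown because miR-671 is known to act on Cdr1as. Bases that form Watson-Crick pairs with miR-671-5p, aligned without gaps, are in capitals.
C230004F18Rik-206: tTCCAGCatCTCCAGGGCTTCCa
Of 23 bases 19 paired, and the next best position of the transcript paired at 17. This stretch covers bases 3119 to 3141 of the transcript. A miR-7 seed match that begins at base 3116 runs into its first bases, and the next lies beyond it, at base 3152.

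**Figure D4:**
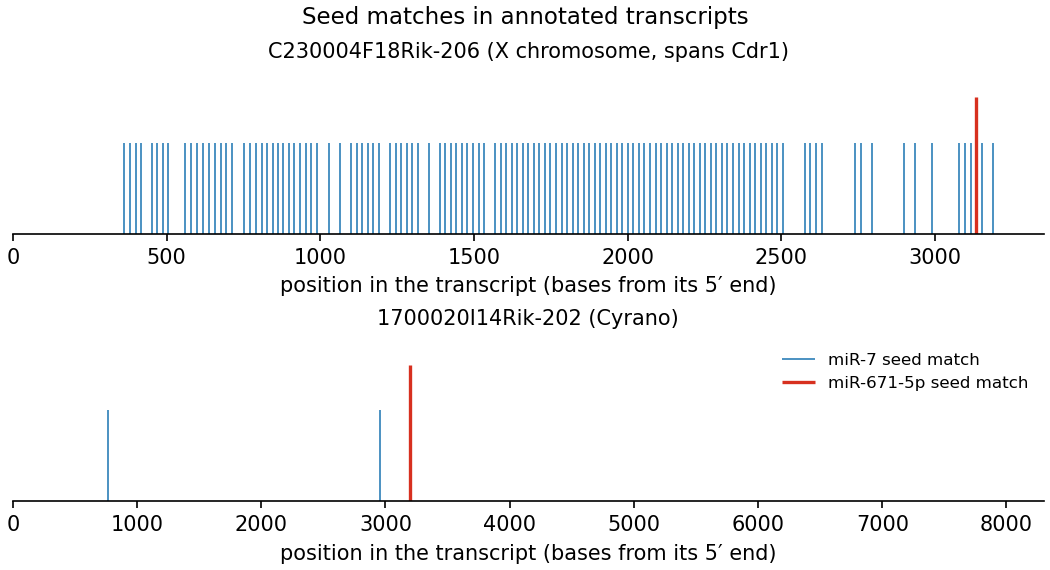
Positions of seed matches along C230004F18Rik-206 and along the Cyrano transcript 1700020I14Rik-202, in bases from the 5′ end; blue lines are miR-7 matches and taller red lines miR-671-5p matches. The upper transcript holds 123 blue lines and the lower holds 2, and each has 1 red line.

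Cyrano is listed by RefSeq as a synonym of 1700020I14Rik on chromosome 2. Its transcript 1700020I14Rik-202 (8300 bases) held 2 GTCTTCC matches, and 16.7% of 1043 windows of that length in other genes held at least as many. Of these 2, the match with more paired bases around it lies in a site at chr2:119602136-119602161, plus strand. It was found by a search that allowed unpaired bases, and pairing in other genes was not counted. Capitals mark bases that pair with miR-7b-5p.
1700020I14Rik-202: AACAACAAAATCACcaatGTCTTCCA
Apart from the 4 bases in lower case, the site pairs with 22 of the 24 bases of miR-7b-5p and with 21 of the 23 bases of miR-7a-5p. The base that separates the strands, A10U, falls opposite the unpaired bases, so all 3 family genes encode a 5p strand with the same paired stretches, up to the last base of miR-7b-5p. A match of letters is no measurement of binding, and these libraries hold no value for it.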

How the data were processed

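The authors deposited raw read counts per miRNA gene, made on mm10 with GENCODE M21, per the readme files; for the aligner and counting tool nothing is stated (not given in the sources used here). Column meanings (both strands, own strand, opposite strand) were read from the values. The column read as both strands had totals of 2221800 and 4067247, below the own-strand totals, so it is no sum of the strands. Own-strand counts were used. Entries that name no gene stayed out of totals and tests: multimapping reads were 48.6% and 52.8% of mapped reads, reads in no feature 7.36% and 6.91%, and unmapped reads 31.6% and 18.2% of all reads (replicates 1 and 2). The libraries differed beyond sampling noise (chi-square 176676 on 760 degrees of freedom) and were kept separate.

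CPM, the exact conditional binomial test (minimum 10 counts in each library, threshold 0.05) and exact intervals were computed with Python 3.11.15 and SciPy 1.17.1. With 1 group, edgeR's quasi-likelihood fit has nothing to contrast. EdgeR 4.0.16 gave TMM factors and the alternative exact test, and DESeq2 1.42.0 gave size factors. The binomial test was tried on simulated counts with Poisson noise alone, so that trial does not cover the wider spread between these libraries. The members and lists were chosen with earlier results of these data known. Named are the 4 genes, the 3 nearest tested genes of each (pseudocount 1), and the top 2 of the decay and endocrine lists by mean CPM; no gene was listed for a shared seed or a place within 50 kb. Other cell-type lists are given as sums. Mir132, Mir433, Mir128-1, the Mir124a genes and Mir96 fall outside that rule and were named after their values were seen. Sequences are from RefSeq GRCm38.p6 and the GENCODE transcripts; no genome sequence was used.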

Additional observations from a re-analysis of the deposited data

How the results depend on the processing

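Alternatives were other count minimums, both strands together, TMM and DESeq2 scaling, totals without the 10 most abundant genes, all mapped reads as total, edgeR's exact test and each library alone. The sign of the log2 ratio held for all 4 genes in each alternative that gives a ratio. With edgeR's exact test, whose dispersion comes from the libraries it compares, 3 genes in all passed, and Mir671 (0.34) and Mir7-2 (0.36) did not. At an unadjusted p under 0.05 in that test there were 19. Mir7-2 also lost its call with totals without the 10 most abundant genes (0.17) and with all mapped reads (0.23). Mir7b gained a call as lower in replicate 2 with TMM (−0.11), DESeq2 (−0.11), totals without the 10 most abundant genes (−0.23) and all mapped reads (−0.17). Totals without the 10 most abundant genes shifted the median ratio of all tested genes by −0.18, and turned the calls from 134 higher and 89 lower to 98 higher and 133 lower. Per 1000000 mapped reads, mean levels were 978 for Mir7b, 707 for Mir671, 38.1 for Mir7-2 and 23.0 for Mir7-1. With the column read as both strands together, they were 2512 for Mir7b and 59.0 for Mir7-1. The counts of all 4 genes were the same there as on their own strand. These levels were thus higher only because the totals of that column were smaller (2221800 and 4067247 in replicates 1 and 2). Single libraries gave 53.5 to 55.3 CPM for Mir7-1 and 2281 to 2354 CPM for Mir7b. Mir7-1 had the fewest counts and the largest counting SE of the 4 genes (0.16), which exceeds the size of its small ratio (−0.05).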
